A study of Arabidopsis thaliana with 6 samples.

Results

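The genes described here are the chloroplast-encoded subunits of the 2 photosystems, the cytochrome b6f complex and the chloroplast ATP synthase, together with rbcL, the gene of the large subunit of Rubisco. They were chosen by name, as probe sets with 1 gene symbol made of psa, psb, pet or atp and 1 capital letter, or the symbol rbcL. This gave 33 probe sets for 33 genes out of 22746 probe sets, and the reference table of the chloroplast genome holds 33 genes that match the same rule. They divide into 5 genes of photosystem I, 15 of photosystem II, 6 of cytochrome b6f, 6 of the ATP synthase and rbcL. All 33 lie on the chloroplast genome. The RNA was from leaves of Arabidopsis thaliana, either wild-type Col-0 or des1-1, a T-DNA insertion mutant (SALK_03855), and each genotype had 3 biological replicates on Affymetrix ATH1 arrays, which carry a set of short probes per gene. DES1 encodes an enzyme that degrades cysteine in the cytosol. All plants were 3 weeks old and were raised in soil with added Hoagland nutrients, in days of 16 h light at 20 °C and 8 h dark at 18 °C. The mutant is 1 insertion line. DES1 has 0 probe sets with 1 named gene here, so the genotype labels were not checked against its level. The nuclear leaf genes RCA, LHCB4.1, LHCB4.2 and PRK stood at mean log2 values of 12.41 to 14.08 in the wild type, and the root hair genes EXPA7 and EXPA18 at 4.94 and 5.54.

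Photosystem II takes electrons from water and hands them through plastoquinone to cytochrome b6f, which passes them on to photosystem I, while the proton gradient so made drives the ATP synthase. The reaction centre proteins and many small membrane subunits of these complexes are encoded in the chloroplast, and the remaining subunits in the nucleus. Most chloroplast genes are transcribed in groups, as long RNAs that are then cut, spliced and edited, by a bacterial-type RNA polymerase encoded in the chloroplast and a phage-type one encoded in the nucleus.

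Every value given is a log2 expression value deposited by the authors, so a difference of 1 is 2-fold, and differences are des1-1 minus wild type. Values are listed for wild type 1, 2 and 3 and then for des1-1 1, 2 and 3. A gene counts as called where its adjusted p is under 0.05 in limma, fitted to all probe sets. A level is compared between arrays for 1 gene only, since probe sets differ in how strongly they bind.

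Most of the 33 genes had a lower mean in des1-1, by small amounts, and 0 passed the test. The mean was lower in 25, higher in 7 and equal in petN, with a median difference of -0.22 against 0.00 over all probe sets. In limma 0 of the 33 were lower at an adjusted p under 0.05, where 0.0572% of all probe sets were, and 0 were higher, where 0.33% were (0.387% in either direction), and the smallest was 0.114, for atpH. At an unadjusted p under 0.05, 8 of the 33 were lower, where the share over all probe sets was 7.66%, and 0 were higher, where it was 7.9%. The 8 were atpA, atpF, atpH, atpI, psbC, psbD, psaA and psaB. They fall in the transcription units atpI to atpA, psbD to psbZ and psaA to psaB. Genes of 1 unit share a precursor RNA, so the 8 are not independent. All 3 des1-1 values lay below all 3 wild-type values in 8 genes, against a share of 8.66% over all probe sets, and above them in 0, against 9.87%. These were the same genes with psbH in place of atpI.

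The median moved with the arrays included. It ran from -0.26 to -0.08 when single arrays were left out, with -0.09 without wild type 2 and -0.08 without des1-1 2, and 21 to 30 genes had a lower mean. The median was -0.13, with 28 lower, without wild type 2 and des1-1 3. Without wild type 2 and des1-1 2 it was -0.015, with 20 lower, a pair left out after seeing the data and made of the highest wild-type and the lowest des1-1 array for these genes, so that the difference shrinks by construction. At an unadjusted p under 0.05, 7 genes were lower and 0 higher without wild type 2, where the shares over all probe sets were 5.64% and 6.21%. Without des1-1 2 it was 5 lower and 3 higher, where the shares were 6.03% and 8.31%. It was 3 lower and 3 higher without wild type 2 and des1-1 2, where they were 4.58% and 7.03%. The 3 genes that were lower at that p in these 3 fits were atpF, atpH and psbD.

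**Figure D1:**
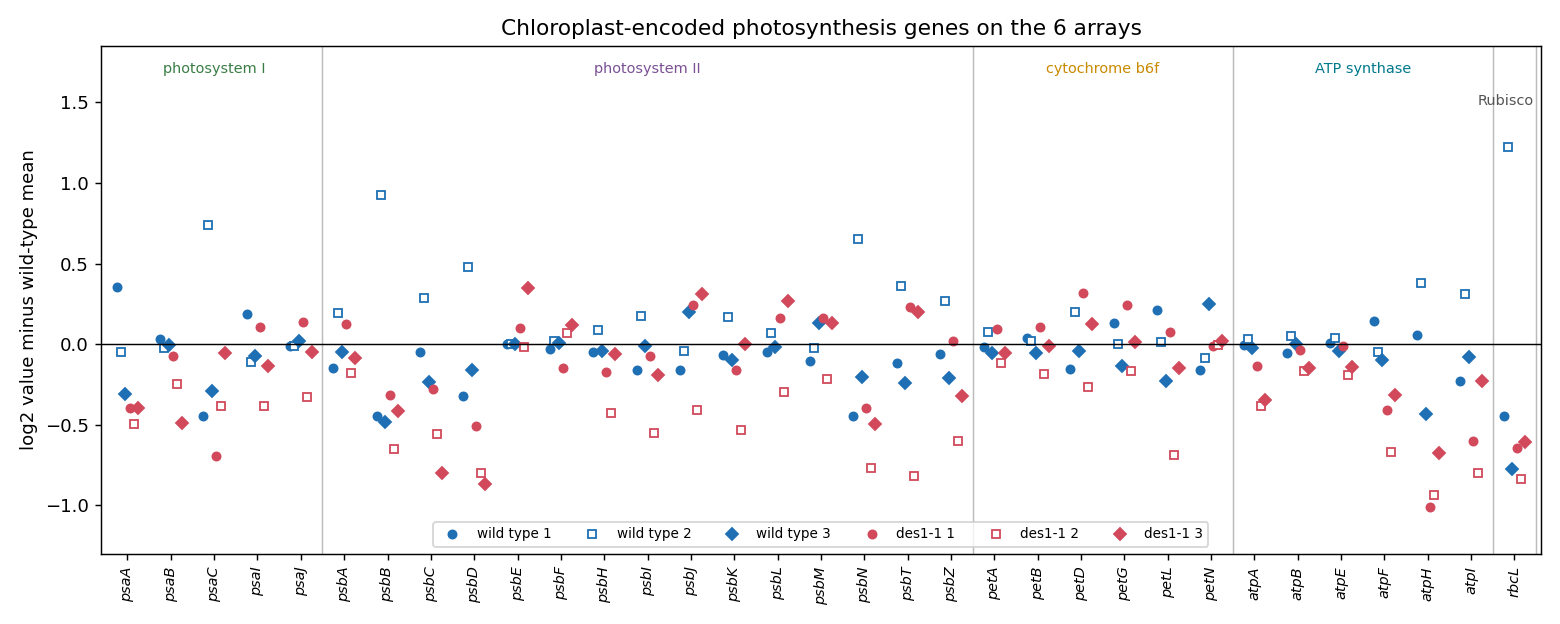
Log2 value of each of the 33 genes on each of the 6 arrays minus that gene's wild-type mean (vertical axis), with genes grouped by complex (horizontal axis). Blue marks are wild type and red marks des1-1, and open squares are replicate 2 of each genotype. The open blue square stands far above the other marks for rbcL, psbB, psaC and psbN, and the open red square is the lowest mark in 26 genes.

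The ATP synthase genes had a lower des1-1 mean in 6 of 6, with a median difference of -0.38. Without des1-1 2 that median was -0.30, beside -0.28 for photosystem I, and no test compared the complexes. The enzyme has a catalytic head, CF1, and a membrane part, CF0, whose ring of c subunits turns as protons pass. atpH, the gene of the c subunit, read 11.60, 11.92 and 11.11 in the wild type and 10.53, 10.61 and 10.87 in des1-1. The genotypes did not overlap, and the lowest wild-type array lay 0.24 above the highest des1-1 array. The means were 11.54 ± 0.41 and 10.67 ± 0.18 (SD, n = 3 each), which is 1.83-fold lower in des1-1 (difference -0.87 ± 0.19 SE, limma adjusted p = 0.114). With an intensity trend in the variance model of limma the adjusted p of atpH was 0.0394, and over the 17 alternatives it ran from there to 0.428.

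The 3 neighbours of atpH lie in the same transcription unit and were also lower. atpF, which encodes a CF0 stalk subunit, read 11.85, 11.66 and 11.61 against 11.30, 11.04 and 11.39, again without overlap. Its difference was -0.46 ± 0.11 SE (limma adjusted p = 0.133). atpA, the gene of the alpha subunit of CF1, was steady in the wild type at 13.63, 13.67 and 13.61 and lower on every des1-1 array at 13.50, 13.25 and 13.29. This is the smallest difference of the 4, at -0.29 ± 0.09 SE, and it sits at the bright end of the array. atpI, the gene of the CF0 subunit that borders the c ring, read 6.27, 6.81 and 6.42 against 5.90, 5.70 and 6.27, so that wild type 1 and des1-1 3 met at the same value. Its difference was -0.54 ± 0.17 SE (limma adjusted p = 0.196). The median of these 4 genes was -0.50, and -0.44 without wild type 2, -0.39 without des1-1 2 and -0.32 without both.

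The other ATP synthase unit, atpB and atpE, showed little difference. atpB encodes the catalytic beta subunit and read 14.28, 14.39 and 14.34 against 14.30, 14.17 and 14.19. atpE encodes the epsilon subunit and read 14.18, 14.21 and 14.13 against 14.16, 13.98 and 14.03. In both genes des1-1 1 lay among the wild-type arrays while des1-1 2 and 3 lay below them. Both differences were -0.12, with 95% intervals of -0.29 to 0.05 for atpB and -0.29 to 0.06 for atpE. atpB and atpE lay near the top of the array's range, at the 99.97th and 99.95th percentile of mean signal. Whether differences are compressed at such bright signals was not tested. No test compared the 2 units with each other.

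Photosystem II was mixed, with 10 genes lower, 5 higher and a median of -0.22 that became 0.003 without wild type 2. psbD and psbC, for the reaction centre protein D2 and the core antenna protein CP43, overlap in sequence and share a transcript. psbD read 9.97, 10.77 and 10.13 against 9.78, 9.49 and 9.42, and psbC read 12.27, 12.60 and 12.08 against 12.04, 11.76 and 11.52. In both, wild type 2 was the highest array, des1-1 3 the lowest, and the genotypes did not overlap. The gap between the groups was narrow for psbC, where wild type 3 and des1-1 1 stood 0.04 apart. psbD differed by -0.73 ± 0.20 SE and psbC by -0.54 ± 0.16 SE, with limma adjusted p of 0.154 and 0.175. Without wild type 2 the differences were -0.49 and -0.40. The third gene of the unit, psbZ, for a small subunit, read 11.54, 11.87 and 11.39 against 11.62, 11.00 and 11.28, with overlap and a difference of -0.30 ± 0.17 SE.

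The reaction centre protein D1, which is damaged by light and replaced faster than any other subunit, is encoded by psbA. Its values were 12.91, 13.25 and 13.01 in the wild type and 13.18, 12.88 and 12.97 in des1-1. The groups overlapped over most of their range and the difference was -0.05, with a 95% interval of -0.31 to 0.21. In the neighbouring pair psbK and psbI, for small subunits of the core, the differences were -0.23 ± 0.14 SE and -0.27 ± 0.14 SE, with des1-1 2 lowest in both at 12.04 and 11.72. Without des1-1 2 they were -0.08 and -0.13.

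The unit psbE, psbF, psbL and psbJ showed no lower mean. psbE and psbF encode the polypeptides that hold cytochrome b559, and psbL and psbJ are small subunits beside them. psbE read 11.79 on all 3 wild-type arrays and 11.89, 11.77 and 12.14 in des1-1, a difference of 0.14 with a 95% interval of -0.08 to 0.37. psbF differed by 0.01 (-0.19 to 0.21), psbL by 0.04 (-0.27 to 0.36) and psbJ by 0.05 (-0.38 to 0.47). On des1-1 2 psbL and psbJ were the lowest of the 6 arrays, at 10.04 and 11.36, whereas des1-1 1 and 3 read 10.50 and 10.61 for psbL and 12.01 and 12.08 for psbJ, above every wild-type array. Without des1-1 2 the differences of psbE, psbL and psbJ were 0.23, 0.22 and 0.28, and these 3 of the 33 genes were higher at an unadjusted p under 0.05 in that fit, near the 8.31% of all probe sets. psbM, another small subunit, differed by 0.03, with a 95% interval of -0.24 to 0.29.

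psbB, the gene of the core antenna protein CP47, heads a unit that runs through psbT and psbH to the cytochrome genes petB and petD. It read 9.70, 11.07 and 9.66 in the wild type and 9.83, 9.49 and 9.73 in des1-1. Apart from wild type 2 the 5 arrays lay within 9.49 to 9.83, and the difference of -0.46 ± 0.33 SE became 0.003 without that array. psbH, for a phosphorylated small subunit, read 11.46, 11.60 and 11.47 against 11.34, 11.08 and 11.45. Its genotypes did not overlap, but des1-1 3 and wild type 1 stood 0.01 apart, and the difference was -0.22 ± 0.10 SE (limma adjusted p = 0.362). psbT, a small subunit, was the most scattered gene in des1-1, at 9.10, 8.05 and 9.07, against 8.75, 9.23 and 8.63 in the wild type. Its difference turned from -0.13 to 0.22 without des1-1 2. psbN lies between psbT and psbH on the opposite strand and takes part in building the complex. It read 8.25, 9.35 and 8.49 against 8.30, 7.93 and 8.20, with wild type 2 on top. The difference of psbN was -0.55 ± 0.25 SE (limma adjusted p = 0.338), and -0.23 without wild type 2.

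**Figure D2:**
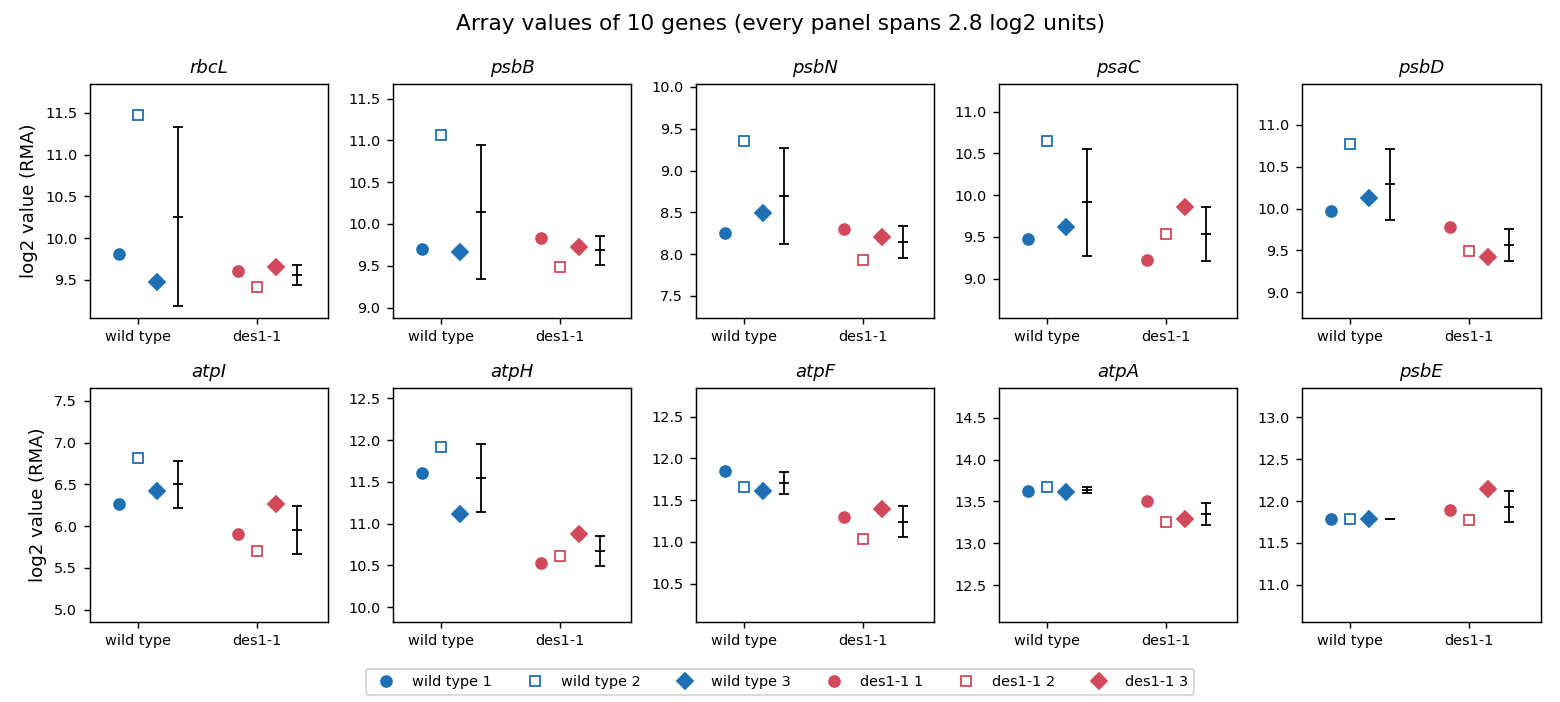
Log2 values of 10 genes on each array (vertical axis, log2 scale, with panels of equal height) for wild type in blue and des1-1 in red (horizontal axis). Open squares are replicate 2, and the bar beside each group is the mean ± SD of its 3 arrays. The upper row holds the 5 genes that stand highest on wild type 2 (rbcL, psbB, psbN, psaC, psbD), and the lower row the 4 genes of the atpI to atpA unit and psbE.

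All 5 photosystem I genes had a lower mean in des1-1, with a median of -0.27. psaA and psaB encode the pair of large proteins that carry the reaction centre. psaA read 11.91, 11.51 and 11.25 in the wild type and 11.16, 11.06 and 11.16 in des1-1, so that the wild-type arrays were spread and the des1-1 arrays close together. psaB was the reverse, steady in the wild type at 13.73, 13.67 and 13.69 and spread in des1-1 at 13.62, 13.45 and 13.21. Neither gene overlapped between genotypes, and wild type 2 was the highest array in neither. The differences were -0.43 ± 0.15 SE for psaA and -0.27 ± 0.11 SE for psaB, with limma adjusted p of 0.223 and 0.269. psaB had an unadjusted p under 0.05 in 1 of the 6 fits that left out a single array, and psaA in 5.

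The other photosystem I genes overlapped between genotypes. psaC, whose protein holds the iron-sulfur clusters that hand electrons to ferredoxin, read 9.47, 10.65 and 9.62 against 9.22, 9.53 and 9.86. Its difference was -0.38 ± 0.29 SE with wild type 2 and -0.0083 without it. The small subunit genes psaI and psaJ differed by -0.14 (95% interval -0.44 to 0.17) and -0.08 (-0.34 to 0.18). On des1-1 2 both were lowest, at 12.06 and 13.14.

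Cytochrome b6f stood nearest to 0, with a median of -0.01, 3 genes lower, 2 higher and petN equal. petA, the gene of cytochrome f, read 12.91, 13.00 and 12.87 against 13.02, 12.81 and 12.87. petB, the gene of cytochrome b6, read 13.81, 13.79 and 13.72 against 13.88, 13.59 and 13.76. In both genes des1-1 1 was the highest and des1-1 2 the lowest of the 6 arrays, and both differed by -0.03, with 95% intervals of -0.22 to 0.16 and -0.23 to 0.17. petD, for subunit IV, differed by 0.06 (-0.29 to 0.41), petG by 0.03 (-0.24 to 0.30) and petN by 0.00 (-0.25 to 0.25), the last pair for small subunits. petD was dim, with a wild-type mean of 5.71, and those of petG and petN were 7.11 and 7.81. petL, a further small subunit, read 11.65, 11.45 and 11.21 against 11.51, 10.75 and 11.29. Its low value on des1-1 2 set most of the difference of -0.25 ± 0.19 SE, which was -0.04 without that array.

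**Figure D3:**
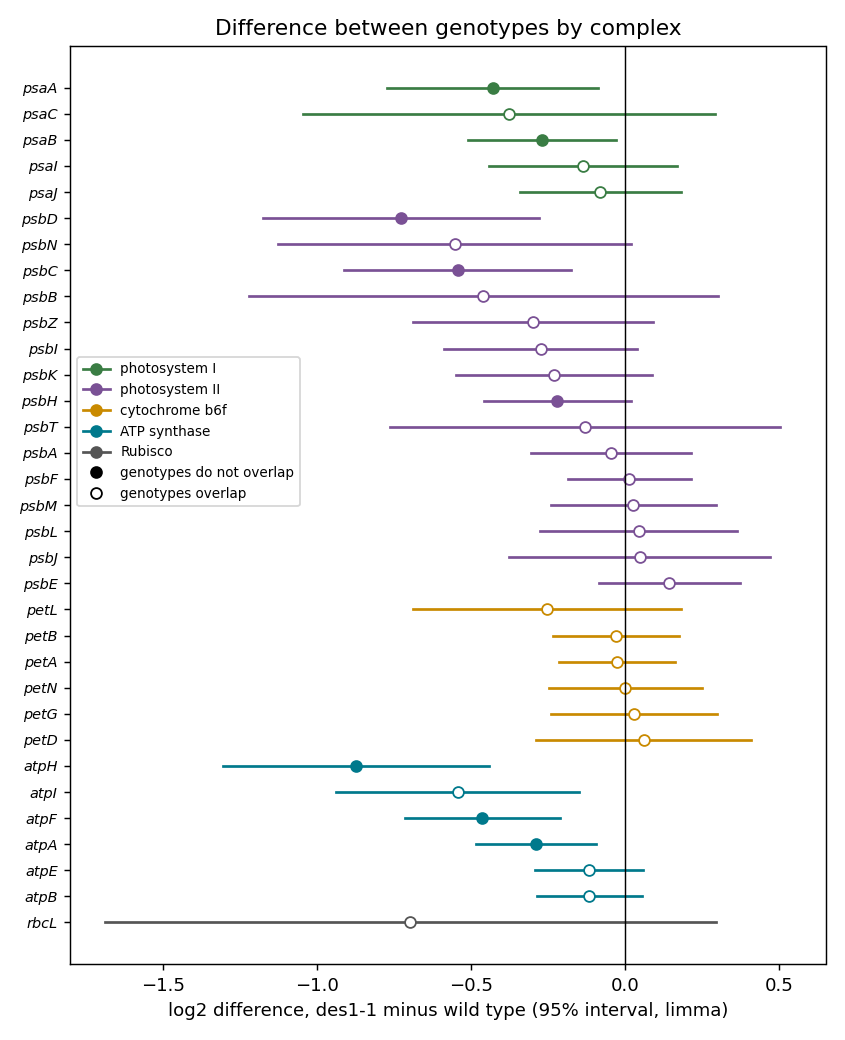
Log2 difference, des1-1 minus wild type, with its 95% interval from limma (horizontal axis) for each of the 33 genes (vertical axis), coloured by complex. Filled points are the 8 genes in which the 3 des1-1 arrays all lie below the 3 wild-type arrays. The ATP synthase and photosystem I points are all left of 0, and the cytochrome b6f points lie around 0 with petL apart at -0.25.

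rbcL showed the widest spread of the 33. It read 9.81, 11.48 and 9.48 in the wild type and 9.61, 9.42 and 9.65 in des1-1. Wild type 2 was 3.18-fold above the next array, while the other 5 arrays lay within 9.42 to 9.81. The difference of -0.70 ± 0.43 SE (95% interval -1.69 to 0.30, limma adjusted p = 0.505) became -0.085 without wild type 2.

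Wild type 2 stood apart for some of these genes and not for others. It held the highest of the 6 values in 17 of the 33 genes, 51.5%, against 15.9% of all probe sets. By complex this was 10 of 15 photosystem II genes, 5 of 6 ATP synthase genes, 1 of 5 photosystem I genes, 0 of 6 cytochrome b6f genes and rbcL. Wild type 2 was also the highest in 13 of the other 36 chloroplast genes, 36.1%. It exceeded the next array by more than 0.5 in 5 of the 33 genes, in 2 of the other 36 chloroplast genes and in 14 of all 22746 probe sets. The 5 were rbcL (by 1.67), psbB (1.24), psbN (0.86), psaC (0.79) and psbD (0.64), at places 2, 3, 6, 7 and 9 when all probe sets are ordered by this excess. These 5 belong to 5 transcription units, and their unit neighbours did not all share the excess. psbC exceeded the next array by 0.33, psbT and psbH by 0.13 each, and in petB and petD wild type 2 was not the highest.

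The 10 probe sets with 1 named gene and the largest excess on wild type 2 held, besides these 5, the chloroplast genes rps16 (by 1.16), for a ribosomal protein, and ndhG (0.58), for a subunit of the NDH complex. The remaining 3 were the nuclear genes AT4G16980 (0.89), AT1G28400 (0.55) and AT3G22520 (0.50). Some control probe sets also set this array apart. The 25S ribosomal RNA control stood at 10.20 there, against 5.49 to 6.20 elsewhere. The 5S ribosomal RNA control did not stand apart, at a dim 4.32 there against 4.16 to 4.30 elsewhere. Ribosomal RNA, like most chloroplast messengers, carries no stable poly(A) tail. The hybridisation controls (bioB, bioC, bioD and cre), which are added at fixed amounts to the labelled sample, were highest on wild type 2 in 18 of 18 probe sets, with a median of 9.93 against 9.27 to 9.56. The bacterial dap, lys, phe and thr controls were highest there in 1 of 24. The part of these differences in the values of the chloroplast genes was not tested.

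des1-1 2 stood apart in the other direction, over more genes but below the next array by more than 0.5 in 1 of the 33 (psbT). It held the lowest of the 6 values in 26 of the 33, 78.8%, against 14.8% of all probe sets, and in 0 was it the highest. The 26 were 12 of 15 photosystem II genes, 5 of 6 in cytochrome b6f, 5 of 6 in the ATP synthase, 3 of 5 in photosystem I and rbcL. The low value was not particular to these genes. des1-1 2 was also the lowest in 17 of the other 36 chloroplast genes. Of the 7 measured nuclear genes for the same complexes it was the lowest in 4. Taking each gene's deviation from its mean over the 6 arrays, the median over the 33 genes was -0.29 on des1-1 2, 0.17 on wild type 2 and between -0.04 and 0.03 on the other 4 arrays. By complex the median on des1-1 2 was -0.42 for photosystem II, -0.34 for the ATP synthase, -0.28 for photosystem I and -0.17 for cytochrome b6f. The 25S control was lowest on des1-1 2, at 5.49, though wild type 3 stood near it at 5.54. Why des1-1 2 stood low was not tested. In bulk leaf RNA, fewer chloroplast transcripts per cell and a different mix of cells cannot be told apart.

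**Figure D4:**
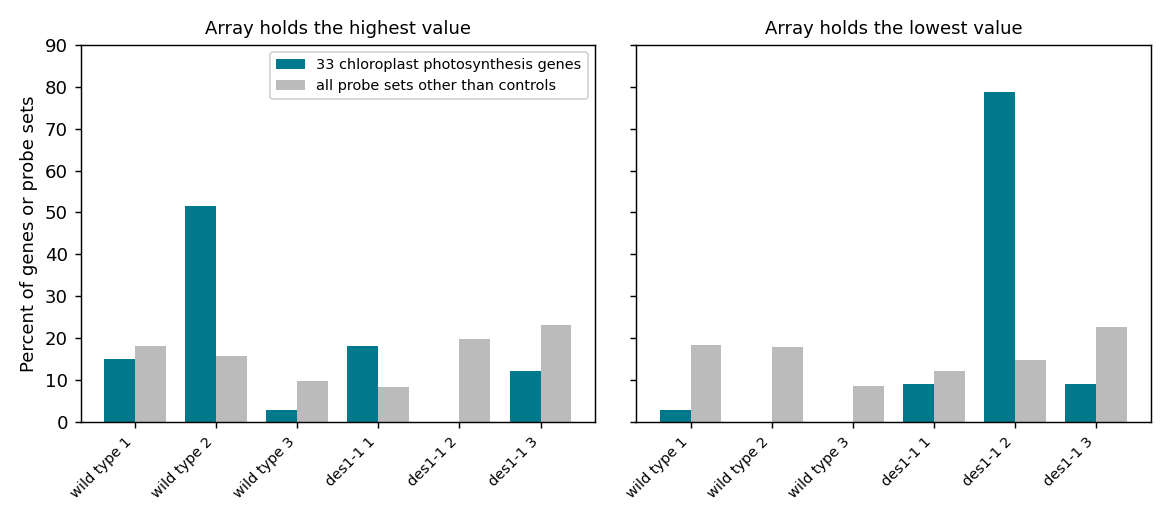
Percent of the 33 genes (teal) and of all 22746 probe sets (grey) in which each array (horizontal axis) alone holds the highest value (left) or the lowest value (right) of the 6. Wild type 2 holds the highest value in 51.5% of the 33 genes and des1-1 2 the lowest in 78.8%, against 15.9% and 14.8% of all probe sets.

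Within transcription units the differences were of 1 sign in some units and of both in others. They ran from -0.87 to -0.29 in the 4 genes from atpI to atpA, from -0.73 to -0.30 in psbD, psbC and psbZ, from -0.43 to -0.27 in psaA and psaB, and from 0.01 to 0.14 in the psbE unit. The psbB unit ran from -0.46 in psbB to 0.06 in petD, and petL, petG and psaJ from -0.25 to 0.03. Spread within units was not tested against spread between them. The units are textbook units of the chloroplast genome, and genes of 1 unit share a precursor RNA, so their values are not independent. Genes that border these units were also measured. Beside atpI, rps2, for a ribosomal protein, differed by -0.41 ± 0.11 SE (limma adjusted p = 0.158). The gene after rps2, rpoC2, for a subunit of the chloroplast RNA polymerase, differed by -0.71 ± 0.18 SE (limma adjusted p = 0.145). rps14, which follows psaB, stood at 0.11 ± 0.11 SE at a dim signal. On the psaA side of that pair, ycf3 differed by -0.62 ± 0.12 SE (limma adjusted p = 0.0992). clpP, beside psbB, differed by -0.58 ± 0.16 SE, and rpoA, beside petD, by -0.44 ± 0.16 SE. rpl33, beside psaJ, differed by 0.14 ± 0.11 SE. psaC lies among the NDH genes, and its neighbours ndhD and ndhE differed by -0.01 and -0.07.

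**Figure D5:**
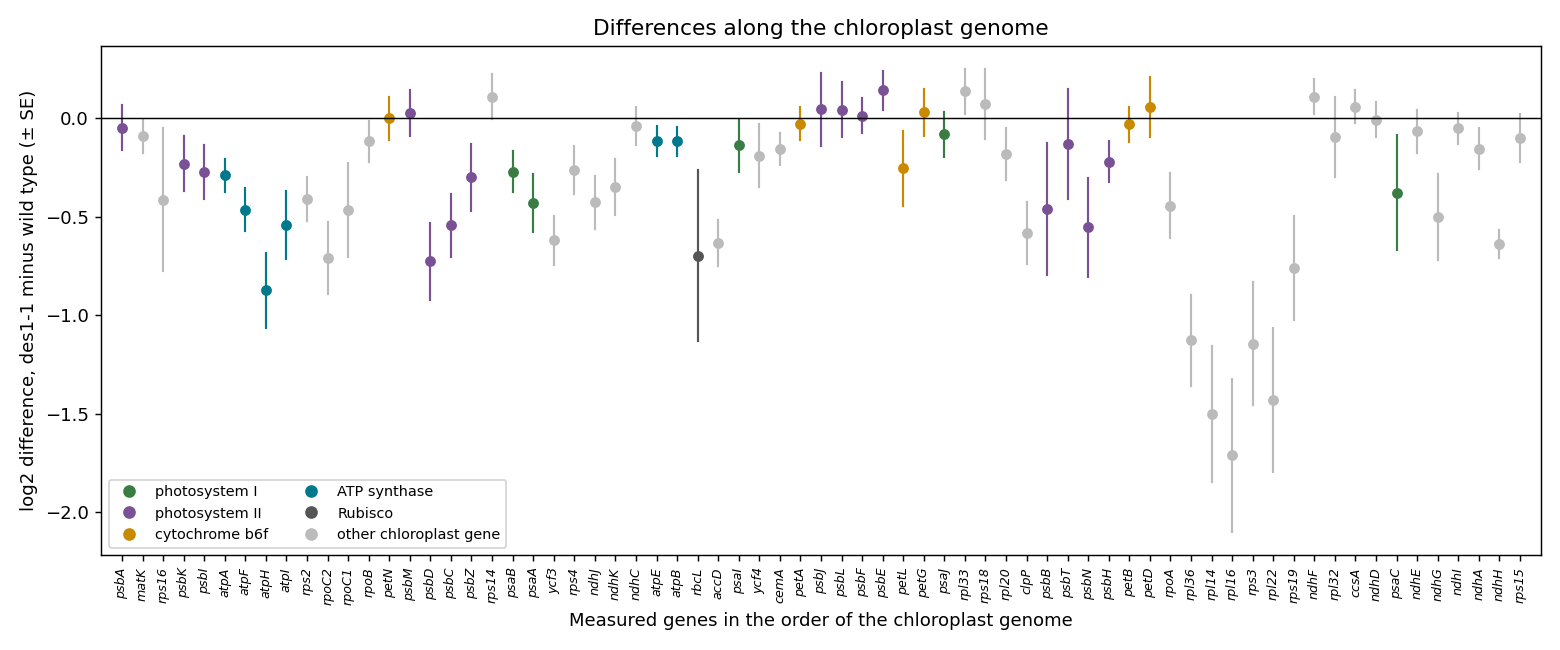
Log2 difference, des1-1 minus wild type, ± SE from limma (vertical axis) for the 69 measured chloroplast genes in genome order (horizontal axis, order only and not to distance). Colours mark the complexes and grey the other 36 genes. The photosynthesis genes lie between -0.87 and 0.14, and the grey points reach -1.71 at rpl16.

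The remaining 36 measured chloroplast genes, among them those of ribosomal proteins, NDH subunits and the RNA polymerase, were also mostly lower. The mean was lower in 31 and higher in 5, with a median of -0.31. At an unadjusted p under 0.05 in limma there were 16, all lower. The shares over all probe sets were 7.66% lower and 7.9% higher. With all arrays ndhH fell (difference -0.64 ± 0.07 SE, limma adjusted p = 0.0113) and was the 1 chloroplast gene called, but the call depended on the fit. Its adjusted p in limma was 0.0766, 0.0757 and 0.0774 without wild type 1, 2 and 3, and 0.0535 without des1-1 2. Without des1-1 1 the test called 15 of the 36, and with an intensity trend it called 4, namely ndhH, accD, rpl36 and rpl16. Over all 22746 probe sets these 2 fits called 765 and 151, against 88 with all arrays and no trend. Next by p were accD (-0.63 ± 0.12 SE, limma adjusted p = 0.0755), a subunit of the enzyme that starts fatty acid synthesis, ycf3 (-0.62 ± 0.12 SE), a factor for assembly of photosystem I, rpl36 (-1.13 ± 0.23 SE), rpl16 (-1.71 ± 0.39 SE) and rpl14 (-1.50 ± 0.34 SE), the last 3 for ribosomal proteins. Without wild type 2 and des1-1 2 the median of the 36 genes was -0.13, and 24 were lower. Whether the photosynthesis genes differed from these 36 was not tested.

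Nuclear genes for the same complexes stood close to 0. Of 38 nuclear loci on a list of subunits and partner proteins, 7 could be measured by an unambiguous probe set. In limma 0 of the 7 passed, where 0.387% of all probe sets did. At an unadjusted p under 0.05 there were 0, where the share over all probe sets was 15.6%. With so few genes these counts cannot be told apart from the shares. The 7 genes had a median of -0.07, and their differences ran from -0.11 to 0.01. ATPC1, the gamma subunit of the same ATP synthase, differed by -0.08 ± 0.07 SE. ATPC2, a second gamma gene, differed by -0.07 ± 0.12 SE, at a dim signal with a wild-type mean of 5.27. PSBW and PSBY, of photosystem II, differed by -0.11 ± 0.10 SE and -0.08 ± 0.08 SE. PSAN, of photosystem I, stood at -0.02 ± 0.08 SE, and RCA, the activase of Rubisco, at -0.07 ± 0.08 SE. PSAE-1, of photosystem I, differed by 0.01 ± 0.07 SE. All of the 7 but ATPC2 lay above the 99.5th percentile of mean signal. Whether differences are compressed there was not tested. Of 45 loci for chloroplast transcription, RNA processing and assembly of the complexes, 4 were measured. Of these 0 passed, again beside 0.387% of all probe sets. HCF101, an iron-sulfur assembly factor needed for photosystem I, differed by -0.26 ± 0.11 SE (limma adjusted p = 0.32, unadjusted p = 0.0498). The photosystem II factor LPA1 differed by -0.15 ± 0.08 SE, LPA66, which edits the psbF transcript, by -0.14 ± 0.09 SE, and LPA2 by 0.01 ± 0.07 SE. No sigma factor of the chloroplast polymerase was among the 4.

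The array medians lay between 5.78 and 5.81, and array pairs correlated at 0.987 or more over all probe sets. By mean signal 22 of the 33 genes lay above the 95th percentile of probe sets and 12 above the 99th, with atpI and petD near the middle. The within-genotype SD had a median of 0.17 in the wild type and 0.19 in des1-1 over the 33 genes, against 0.09 and 0.11 over all probe sets. Across the 33 genes the difference had a Spearman rho of 0.23 with mean signal and -0.36 with gene span, a description over genes that share arrays and transcripts.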

How the data were processed

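The log2 values deposited by the authors came from RMA in affy, as the submitters' processing notes say without versions. RMA removes background, gives all arrays 1 distribution and joins the probes of a probe set, so a shift of all transcripts is lost and dim differences are compressed. Values ran from 3.63 to 14.63, and arrays have no read depth, so their number limits the precision. All 6 arrays were used.

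The fit took 22746 of 22810 probe sets, all but 64 controls. A platform annotation named 13513 with 1 gene. Identifiers were matched to the TAIR10.1 reference table, used for names and gene order only, because the annotation names no build. No sequences were used here. The 2 genotypes were tested against each other by lmFit and eBayes of limma 3.58.1 (R 4.3.3), two-sided, with genotype as the only term and Benjamini-Hochberg adjustment across the whole table, which gave every SE, 95% interval, p and adjusted p. The fit was tested on simulated data. Tables used Python 3.11.15 and pandas 2.3.3, and plots matplotlib 3.10.9.

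The members, lists and units were chosen with earlier results of these data known. The text describes every member. From other lists it names genes past the test and up to 6 with the smallest p, and it names 10 genes by their excess on wild type 2. For genes with more than 1 probe set the brightest stood for the gene. Other settings were quantile, median and cyclic loess normalization, dropping the dimmest 25% or 50%, a trended or robust variance, array weights, blocking on replicate number, and leaving arrays out. Leaving out wild type 2 with des1-1 2 was added after seeing the data. Neighbouring and bordering genes in the text were picked by position, and not every bordering gene is named. Flower, seed and pollen markers had no probe set with 1 named gene here.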

Additional observations from a re-analysis of the deposited data

How the results depend on the processing

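With 3 arrays per genotype and a spread of the chloroplast genes above that of other probe sets, small differences could not be resolved. Of the single-gene results under alternatives, petN aside, 500 kept direction and side of the threshold, 42 turned sign and 1 (atpH) newly passed. Calls over all probe sets, 88 with all arrays, numbered 151 with an intensity trend, 183 with the replicate block, 9 without wild type 2 and des1-1 3, 4 without wild type 2 and des1-1 2, and 20 to 765 with single arrays left out. Among the 33 genes the trend gave 1 call, atpH (-0.87, adjusted p = 0.0394). The other alternatives gave 0. Between genotypes, deviations of arrays with the same number had correlations of 0.167, -0.229 and 0.211. These do not settle whether the numbers pair the samples. Only for numbers 1 and 3 was the same-numbered array the closest, and the replicate block left 0 of the 33 called. At an unadjusted p under 0.05 there were 4 lower and 0 higher without wild type 2 and des1-1 3 (3.71% and 4.34% of all probe sets), 3 lower and 3 higher without wild type 2 and des1-1 2 (4.58% and 7.03%), and 5 to 11 lower and 0 to 3 higher with single arrays left out (5.17% to 10.2% and 5.19% to 8.73%). The cytochrome b6f median was 0.0083 with array weights, 0.055 without wild type 2 and des1-1 2, and -0.082 to 0.033 with single arrays left out. That of photosystem II was 0.005 without wild type 2 and des1-1 2 and -0.30 to 0.0033 with single arrays left out, and that of the ATP synthase -0.24 and -0.43 to -0.30.

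Signs turned in genes that did not pass in any of these fits. petA read 0.0097 after quantile normalization, and array weights gave petA 0.010, petB 0.0062 and psbF -0.018. Without wild type 2 and des1-1 3 the differences were -0.03 for psbF, -0.04 for psbM, 0.025 for petA, -0.105 for psbJ, -0.035 for psbL and 0.07 for psbA. Without wild type 2 and des1-1 2 they were -0.005 for psbF, 0.04 for psaJ, 0.10 for psbB, 0.395 for psbT, 0.055 for petB and petA, 0.115 for psbA and 0.005 for psbK. With single arrays left out, ranges were -0.087 to 0.018 for petA, -0.098 to 0.047 for petB, -0.068 to 0.22 for petD, -0.077 to 0.13 for petG, -0.19 to 0.045 for psaJ, -0.13 to 0.05 for psbA, -0.70 to 0.0033 for psbB, -0.04 to 0.10 for psbF, -0.085 to 0.28 for psbJ, -0.07 to 0.22 for psbL, -0.042 to 0.15 for psbM and -0.31 to 0.22 for psbT. petN, equal with all arrays, ran from -0.08 to 0.12. Filtering out the dimmest 50% removed petD. The cause was not tested where arrays and probe sets stayed the same.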
